A study of Mus musculus with 5 samples.

Results

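B lineage cells of the mouse mammary gland are described here, in libraries labelled Frmd3 KO and in wild-type (WT) libraries. The cells were picked out by the genes they transcribe, since no cell labels were used. A cell barcode needed 500 or more genes and no more than 15% mitochondrial UMIs (unique molecular identifiers, which count captured transcripts). It then needed at least 4 UMIs of Cd79a, Cd79b and Ms4a1 together. Cd3d, Cd3e and Trac of T cells had to sum to under 2 UMIs, the macrophage genes C1qa, C1qb and C1qc to under 20 per 10000 UMIs, and the fibroblast genes Col1a1, Col1a2, Col3a1 and Dcn to under 50 per 10000 UMIs. The epithelial gene Epcam had to be at 0. Of 28588 kept cells among 32472 deposited barcodes, 591 met this rule. The library KO1 held 256 of them, KO2 held 79, KO3 held 0, WT1 held 38 and WT2 held 218.

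The study profiled whole mammary gland by droplet sequencing of transcript 3′ ends, with 3 libraries labelled Frmd3 KO and 2 labelled WT. No treatment is named in the labels, and the sources used here do not state the strain, age or sex of the mice or how the gene was inactivated. The series title connects Frmd3 with tumor suppression, with mammary epithelial fate and with the Notch pathway.

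A B cell carries an antibody on its surface as a receptor, built from paired heavy chains and light chains, and the proteins CD79A and CD79B pass the receptor's signal into the cell. CD20, the product of Ms4a1, is a membrane protein of B cells that is lost when they turn into antibody-secreting plasma cells. Recirculating mature B cells co-express IgM and IgD, present peptides to T cells on MHC class II, and enter lymph nodes through CCR7. The mammary gland holds lymph nodes in its fat pad, and in lactation it gathers plasma cells that make IgA for milk.

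Depth was close among libraries within the B lineage cells, which had a median of 4079 UMIs in KO1, 4465 in KO2, 4031.5 in WT1 and 4084.5 in WT2. Their summed counts came to 1124563, 365323, 180508 and 966547 UMIs in the same order, so values of WT1 rest on the fewest transcripts. No B lineage barcode was shared between libraries, while 3 to 22 barcodes were shared per pair of libraries over all cells. Frmd3 itself (chromosome 4, 74013442 to 74202214, GRCm38) had 0 UMIs in the B lineage cells of every library. In kept cells outside the B cell gate, T cells included, it stood at 2.15, 3.08 and 1.88 CPM in KO1, KO2 and KO3. In WT1 and WT2 it stood at 1.45 and 2.36 CPM (counts per 1000000 summed UMIs of those cells). The knockout is therefore not visible in these 3′ counts, and a deletion that leaves the transcript's end in place would not show. Every difference and fold change below gives libraries labelled KO relative to libraries labelled WT, so a positive value is higher in KO.

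Cell numbers showed no gap at the gate's lower limit. Just inside it, 15 cells had exactly 4 UMIs of the 3 gate genes and 18 had 5. Just outside it, 14 otherwise eligible cells had 3 UMIs and 18 had 2. The median cell had 12 gate UMIs in KO1, 14 in KO2, 12 in WT1 and 18 in WT2. Of 744 kept cells with at least 4 gate UMIs, 153 (20.6%) were turned away by the other limits, 115 of them by a UMI of Epcam, 41 by the collagen limit, 5 by the C1q limit and 0 by the T cell limit, with some failing more than 1. That share was 13.2% in KO1, 27.5% in KO2, 15.6% in WT1 and 25.6% in WT2. In KO3, 2 cells reached 4 gate UMIs and neither passed the other limits.

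B cell genes that the rule did not use followed the gate. Pax5, the transcription factor that holds B cell identity, was at 392 CPM in KO1, 175 in KO2, 238 in WT1 and 222 in WT2. T gate cells, chosen by at least 2 UMIs of Cd3d, Cd3e and Trac with under 2 gate UMIs and the same other limits, averaged 0.117 CPM of Pax5. Ebf1, which acts with Pax5, was less exclusive, with a mean of 1025 CPM in B lineage cells, 13.8 in T gate cells and 254 in all other kept cells. Here and below, other kept cells are all that are not B lineage cells, so the T gate cells are among them. Ighd, the constant region of IgD (chromosome 12, 113406604 to 113416324, minus strand), was at 909 CPM in KO1, 597 in KO2, 543 in WT1 and 628 in WT2. Fcmr, an IgM receptor, Bank1, a signalling adaptor, Cd22, an inhibitory receptor, and Blk, a Src family kinase, averaged 456, 291, 123 and 168 CPM, and at most 7.33 CPM in T gate cells. The B cell marker list of 11 genes also includes the gate genes Cd79a, Cd79b and Ms4a1, whose levels the rule itself raises. They averaged 1681, 1098 and 572 CPM in B lineage cells. All 11 genes were detected in every one of the 4 libraries. Their summed levels, gate genes included, were 6809, 6151, 5523 and 7752 CPM in KO1, KO2, WT1 and WT2. These genes follow from choosing B cells and are given as a description.

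Among the genes with the highest ratio over all other kept cells were more B cell surface and signalling genes. Cxcr5, the receptor that guides B cells into follicles, averaged 147 CPM, against 0.66 CPM in other kept cells. Fcer2a, which encodes the IgE receptor CD23, averaged 231 CPM, and Tnfrsf13c, the survival receptor for BAFF, averaged 196 CPM. Fcrla, a B cell protein related to Fc receptors, averaged 256 CPM, and Spib, an Ets family transcription factor, averaged 201 CPM. The most abundant transcript of all was the unnamed gene model Gm42418, at 106657, 58882, 82661 and 97857 CPM in KO1, KO2, WT1 and WT2. It was as abundant in T gate cells, with a mean of 100747 CPM.

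**Figure D1:**
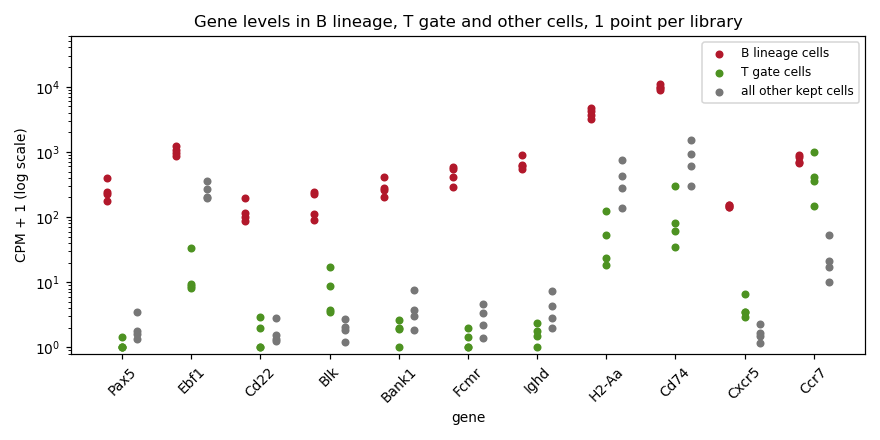
CPM plus 1 on a log axis for 11 genes (x axis), with 1 point for each of the libraries KO1, KO2, WT1 and WT2, in B lineage cells (red), T gate cells (green) and all other kept cells (grey). The grey points include the T gate cells. Pax5 lies at 175 CPM or above in every B lineage point, whereas Ccr7 is high in T gate cells too, with a mean of 475 CPM.

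Genes of other cell types were low but not all at 0. The rule itself limits Cd3d, Cd3e and Trac of the T cell list and Col1a1, Col1a2, Col3a1 and Dcn of the fibroblast list. It also limits C1qa, C1qb and C1qc of the macrophage list and Epcam of the epithelial list. Low sums of these lists were therefore partly set in advance, and Cd3d, Cd3e and Trac also define the T gate cells. Of the 10 T cell markers, Cd4, Cd8a and Cd8b1 were at 0 in every library, and the list summed to 20.5, 13.7, 116 and 17.6 CPM in KO1, KO2, WT1 and WT2, against 3507 to 3944 CPM in T gate cells. The WT1 sum includes 19 UMIs of Cd28 from 1 antibody-secreting cell described further on. The 6 fibroblast markers summed to 381, 695, 177 and 1006 CPM, against 10814 to 30846 CPM in other kept cells, and the 6 epithelial markers to 114, 315, 249 and 273 CPM, with Epcam at 0 by the rule. The 8 macrophage markers summed to 157, 30.1, 127 and 199 CPM, and the 9 natural killer or innate lymphoid markers to 55.1, 21.9, 33.2 and 201 CPM. Of the WT2 UMIs of Lyz2, a lysozyme of myeloid cells, 131 of 161 came from 1 cell, and of its UMIs of Gzma, a granzyme of killer cells, 127 of 138 came from 3 cells. The 8 dendritic cell markers, with Xcr1, Clec9a and Siglech at 0, summed to 34.7, 71.2, 60.9 and 76.6 CPM in KO1, KO2, WT1 and WT2. In other kept cells they summed to 183, 255, 194 and 254 CPM. The 5 endothelial markers, with Cdh5 and Emcn at 0, summed to 67.6, 43.8, 55.4 and 50.7 CPM. Other kept cells had 51.1, 113, 53.4 and 44.1 CPM of them, so only in KO2 was the endothelial sum lower in B lineage cells. Fibroblast and epithelial marker sums were highest in KO2 or WT2, and their part in the gene comparisons below was not tested.

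B lineage cells made up 2.47% of kept cells in KO1 and 1.70% in KO2, and were not seen in KO3. In WT1 they made up 0.751% and in WT2 3.50%. With 0 of 2279 kept cells in KO3, a floor of 3 counts stands at 0.132%, and the exact 95% binomial interval reaches 0.162%. Both limits cover counting error only. The same interval of WT1 was 0.532% to 1.03%. The mean was 1.39% ± 1.26 in libraries labelled KO (SD, n = 3) and 2.12% ± 1.94 in WT libraries (SD, n = 2). The spread among libraries of 1 genotype exceeded the difference of means, which was -0.73 percentage points (two-sided exact permutation test over 10 splits, p = 0.7, smallest p possible 0.1). Both genotypes had a library poor in B cells and at least 1 rich in them.

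Set against T cells, B lineage cells were 43.1% of B lineage plus T gate cells in KO1, 52.7% in KO2, 0% in KO3, 14.0% in WT1 and 43.3% in WT2. KO3 still had 58 T gate cells and WT1 had 234, so lymphocytes as such were not missing from either. With 0 of 58 in KO3, the floor of 3 counts is 5.17% and the exact interval reaches 6.16%. The means were 31.9% ± 28.1 in libraries labelled KO (SD, n = 3) and 28.7% ± 20.8 in WT libraries (SD, n = 2; exact permutation p = 1).

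**Figure D2:**
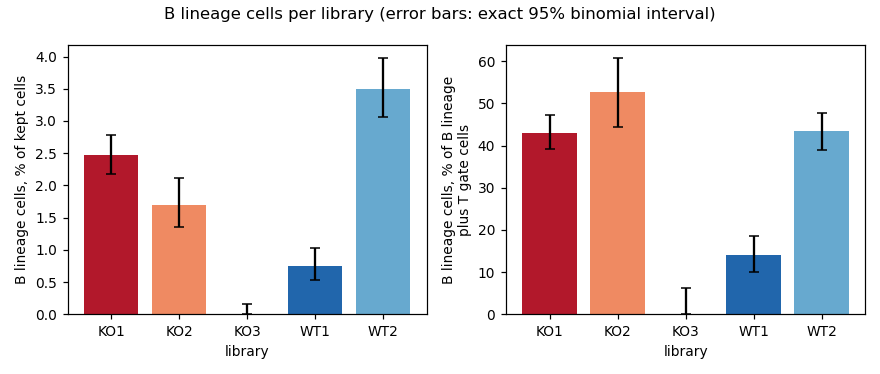
B lineage cells as a percentage of kept cells (left y axis) and of B lineage plus T gate cells (right y axis) in each library (x axis), with exact 95% binomial intervals as error bars. KO1, KO2 and WT2 are the libraries with 1.70% or more; KO3 has 0 cells and WT1 0.751%.

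Nearly all B lineage cells carried an unswitched receptor. Ighm, the constant region of IgM (chromosome 12, 113418558 to 113422730, minus strand), was detected in 97.3% of the cells in KO1, 98.7% in KO2, 97.4% in WT1 and 99.1% in WT2. T gate cells also held Ighm UMIs, in 39.6%, 16.9%, 11.5% and 23.2% of cells, and fibroblasts, taken as kept cells with at least 200 UMIs per 10000 of the 4 fibroblast genes, in 2.63% to 14.4%, so that single Ighm UMIs occur outside B cells. The median B lineage cell had 7, 14, 9.5 and 22 Ighm UMIs. A switched constant gene (IgG, IgA or IgE) outnumbered Ighm plus Ighd in 2 of 248 scorable cells of KO1 and 1 of 79 of KO2, against 1 of 38 of WT1 and 0 of 214 of WT2. These shares of 0.806%, 1.27%, 2.63% and 0% did not separate the genotypes (exact permutation p = 1).

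IgD, a mark of naive mature B cells, was read at a fixed depth of 1500 UMIs per cell. Ighd UMIs were found in 72.1% of the cells of KO1 and 62.0% of KO2, against 56.8% of WT1 and 54.8% of WT2, while no T gate cell at that depth had any. Without thinning the shares were 89.8%, 78.5%, 78.9% and 80.3%. Thinning left out 5 shallower cells in KO1, 0 in KO2, 1 in WT1 and 1 in WT2. At the fixed depth the libraries labelled KO averaged 67.1% ± 7.13 and the WT libraries 55.8% ± 1.36 (SD, n = 2 each). The values of both groups did not overlap, but 2 against 2 libraries cannot give an exact permutation p under 0.333, the value found here (0.833 after Benjamini-Hochberg adjustment over 5 within-cell shares). Unthinned, KO2 lay below both WT libraries. The difference of 11.3 percentage points was 5.92 at a depth of 1000 UMIs (exact permutation p = 1), 3.81 without the Epcam and collagen limits (p = 1) and 6.76 under a gate of 10 per 10000 UMIs (p = 0.667), so the separation of the groups did not hold there.

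Light chains were mostly kappa. Igkc, the kappa constant region (chromosome 6, 70726435 to 70726966), was exceeded by the summed lambda genes Iglc1, Iglc2 and Iglc3 in 13.4% of cells in KO1, 15.2% in KO2, 18.4% in WT1 and 23.6% in WT2. The lambda constant genes are close copies, so their levels, and with them the lambda-led share, are uncertain where reads match more than 1 of them. Libraries labelled KO averaged 14.3% ± 1.29 and WT libraries 21.0% ± 3.67 (SD, n = 2 each; exact permutation p = 0.333, the smallest possible; adjusted 0.833). The difference of -6.74 percentage points was -4.51 among cells with at least 10 light chain UMIs (exact permutation p = 0.667), so the groups did not separate there. A B cell normally expresses 1 kind of light chain, yet at least 2 UMIs of both kinds were present in 65.6%, 89.9%, 68.4% and 86.1% of cells with 3 or more light chain UMIs. Kappa-led cells held a median of 3, 8.5, 3 and 9 lambda UMIs. T gate cells had Iglc2 in 0% to 0.702% of cells and Igkc in 2.82% to 15.4%. The source of the second light chain's UMIs was not tested.

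**Figure D3:**
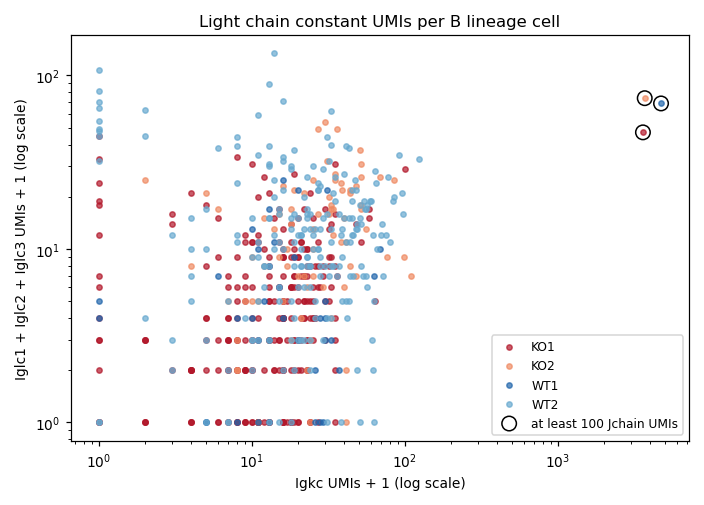
Lambda constant UMIs (sum of Iglc1, Iglc2 and Iglc3, plus 1) against Igkc UMIs (plus 1) in each B lineage cell, both on log axes, coloured by library; rings mark cells with at least 100 Jchain UMIs. Most cells hold both kinds, and the 3 ringed cells of KO1, KO2 and WT1 lie apart at 3598, 3696 and 4725 Igkc UMIs.

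Antibody-secreting cells were rare within the gate, and the 3 found were singled out after their values were seen. Each had at least 100 UMIs of Jchain, the joining chain of secreted IgA and IgM. The KO1 cell made IgG2b, with 1474 Ighg2b, 3598 Igkc and 368 Jchain UMIs among 23715. The KO2 cell made IgA, with 744 Igha, 3696 Igkc and 137 Jchain UMIs among 17255. The WT1 cell also made IgA, with 834 Igha, 4725 Igkc and 408 Jchain UMIs among 26129. All of them had 0 UMIs of Ighm, Ms4a1 and Pax5. They carried 117, 98 and 46 UMIs of Mzb1, a chaperone of antibody assembly, and 17, 15 and 28 of Xbp1, the transcription factor of the secretory programme. Tnfrsf17, the plasma cell survival receptor BCMA, had 12, 8 and 24 UMIs. No such cell was in the gate in WT2.

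These few cells held a large part of the antibody UMIs of their libraries. The WT1 cell alone held 26129 of the 180508 summed UMIs of WT1, which lowers the WT1 CPM of genes that this cell lacks. Igkc stood at 6578, 16413, 30021 and 6211 CPM in KO1, KO2, WT1 and WT2 over all B lineage cells. Without the 3 secreting cells and 1 cycling cell it stood at 3470, 6608, 4495 and 6211 CPM. Jchain was at 343, 375, 2260 and 8.28 CPM with them, and at 7.504, 0, 0 and 8.28 CPM without them. In the remaining cells, Jchain never exceeded 7 UMIs and switched constant genes never exceeded 1 UMI in a cell. At least 3 of 8 plasma cell genes were detected in 5.47% and 7.59% of the B lineage cells of KO1 and KO2, against 10.5% and 6.42% of WT1 and WT2 (exact permutation p = 0.667).

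The gate missed most antibody-secreting cells. Another 12 kept cells had at least 100 Jchain or 1000 Igkc UMIs without being members, with 3 in KO1, 2 in KO2, 0 in KO3, 1 in WT1 and 6 in WT2. Of these, 11 were turned away by Epcam UMIs, with a median of 2 to 4 such UMIs per library, and 1 had under 4 gate UMIs. Igha outnumbered Ighm in 7 of them, 2 in KO2 and 5 in WT2. The source of their Epcam UMIs was not tested.

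The leading heavy and kappa variable segments of the secreting cells are shown because the variable segment makes part of the antibody's antigen contacts. They are germline reference sequences of GRCm38 (GENCODE release M21), the last part of each coding sequence on its own strand, and not sequences read from the cells. Capitals mark the segment's last cysteine codon and what follows it, which is where the third antigen-contact loop begins. The KO1 cell had 34 UMIs of Ighv7-3 (chromosome 12, 114153180 to 114153644, minus strand) and 18 of Igkv17-121 (chromosome 6, 68036812 to 68037318, plus strand). The KO2 cell had 15 UMIs of Igkv12-46 (chromosome 6, 69764523 to 69765022, minus strand). The WT1 cell had 26 UMIs of Igkv1-135 (chromosome 6, 67609713 to 67610508, plus strand). Iglv1, a lambda segment, had 10, 3 and 1 UMIs in the KO1, KO2 and WT1 cells and is not shown. Each cell led with a different kappa segment.
Ighv7-3: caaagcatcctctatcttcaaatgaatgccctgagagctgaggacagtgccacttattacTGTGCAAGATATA
Igkv17-121: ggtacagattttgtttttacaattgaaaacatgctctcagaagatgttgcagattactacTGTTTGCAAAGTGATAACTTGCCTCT
Igkv12-46: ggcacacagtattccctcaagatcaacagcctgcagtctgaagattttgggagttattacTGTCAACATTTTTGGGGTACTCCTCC
Igkv1-135: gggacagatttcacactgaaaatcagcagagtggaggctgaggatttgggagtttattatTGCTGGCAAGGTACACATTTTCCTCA

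Variable segments lie far from the transcript's 3′ end and were seen rarely. Of the 591 cells, 158 (26.7%) had a UMI of any of the 348 heavy, kappa or lambda variable genes in the files, with 27.3% in KO1, 22.8% in KO2, 28.9% in WT1 and 27.1% in WT2. They held 322 such UMIs over 90 different segments. No segment was found in more than 5 cells of a library, the count reached by Ighv8-8 in KO1 and Iglv1 in WT2. Reads of near-identical segments may be split between them, so single-UMI assignments are uncertain.

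Genes of recirculating follicular B cells were present in every library. Of these, Ccr7, the lymph node homing receptor, was at 827, 706, 665 and 892 CPM in KO1, KO2, WT1 and WT2, and Cxcr5 at 140, 153, 144 and 151 CPM. Klf2, a transcription factor of recirculating lymphocytes, was at 633, 854, 1119 and 838 CPM. Fcer2a was at 365, 189, 199 and 172 CPM, and Cr2, the complement receptor CD21, at 104, 16.4, 16.6 and 21.7 CPM. KO1 stood above the other libraries in both. At 1500 UMIs per cell, Cr2 was detected in 13.1% of cells in KO1, 0% in KO2, 2.70% in WT1 and 2.76% in WT2. Fcer2a was detected in 38.6%, 25.3%, 27.0% and 16.6% of cells. Without thinning, the shares were 28.9%, 5.06%, 7.89% and 8.26% for Cr2 and 64.5%, 39.2%, 42.1% and 33.9% for Fcer2a, and at most 0.297% of T gate cells at the fixed depth had either. KO2 lay below both WT libraries in Cr2, so the high value was that of 1 library.

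The 11 B-1 genes summed to 225 and 249 CPM in KO1 and KO2, against 277 and 397 CPM in WT1 and WT2. Vpreb3, which persists into immature B cells and does not single out B-1 cells, was the largest part, at 121 and 107 CPM, against 88.6 and 270 CPM. The sums therefore do not measure B-1 cells. Cd5, a surface protein of B-1a cells, had at most 10.9 CPM in any library, and Zbtb32, a repressor found in memory and B-1 cells, at most 5.47 CPM. The 11 marginal zone genes, Cr2 among them, summed to 645 and 780 CPM in KO1 and KO2, against 609 and 621 CPM in WT1 and WT2. Of these, Mzb1 was at 277 and 463 CPM, against 393 and 191 CPM. The single antibody-secreting cells of KO1, KO2 and WT1 held 117, 98 and 46 of the Mzb1 UMIs, and the list sums include them. Cd9, a tetraspanin of marginal zone and B-1 cells, was at 23.1 and 27.4 CPM, against 22.2 and 51.7 CPM. The 12 memory and age-associated genes summed to 397 and 331 CPM in KO1 and KO2, against 371 and 392 CPM in WT1 and WT2. Of these, Cd80 was at 0 in every library, and Tbx21 and Itgax were each under 8 CPM. The 12 germinal centre genes summed to 161 and 84.9 CPM, against 122 and 118 CPM, with S1pr2, a confinement receptor, at no more than 10.7 CPM. The 12 precursor and transitional genes summed to 267 and 205 CPM, against 144 and 558 CPM. Among them, Rag1, Rag2, Vpreb1, Igll1 and Dntt were all under 8 CPM, so other members made up most of these sums.

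**Figure D4:**
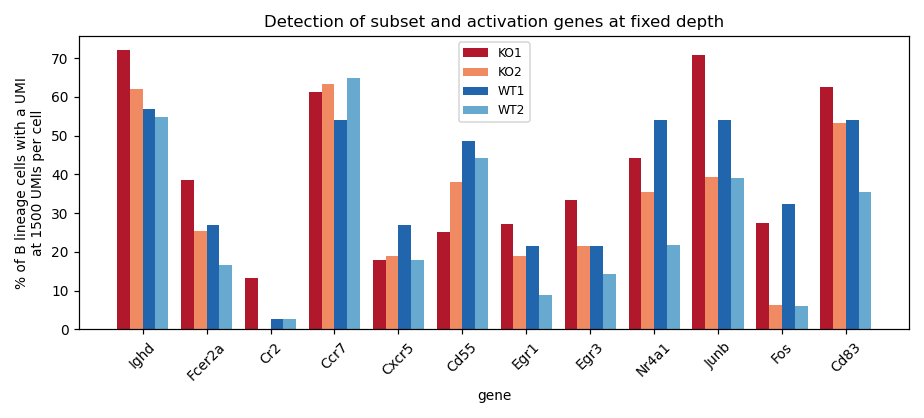
Percentage of B lineage cells with at least 1 UMI of each gene after thinning every cell to 1500 UMIs (y axis), for 12 genes (x axis), with 1 bar per library. Ighd stands at 72.1% and 62.0% in KO1 and KO2 and at 56.8% and 54.8% in WT1 and WT2, while Fos and Junb are highest in KO1 or WT1.

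A few cells stood out within the gate and were picked after their values were seen. One KO1 cell had 42 Mki67 and 27 Top2a UMIs, both genes of dividing cells, with 40 Ighg2b, 6 Mef2b and 5 S1pr2 UMIs among 34808. It still had 28 Ms4a1 UMIs and no Ighm. Myb, a transcription factor of precursor and cycling cells, reached 5 UMIs in 8 cells, 1 in KO1 and 7 in WT2. All of these had at most 1 Ighd UMI, and the WT2 ones had 13 to 80 Ighm UMIs. Of the 7 cells of WT2, 2 also held 58 and 30 Gzma UMIs, at 13705 and 10025 UMIs in all, and are among the 3 cells with most of that library's Gzma. They account for 61 of the 119 Myb UMIs of WT2, where Myb stood at 123 CPM, against 19.6, 21.9 and 0 CPM in KO1, KO2 and WT1.

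To ask whether the genotype label went with gene levels in B lineage cells, UMIs were summed per library, and KO1 and KO2 were compared with WT1 and WT2. KO3 has no B lineage cell and could not enter. Of 6575 genes tested with edgeR's quasi-likelihood test, 0 (0%) passed a Benjamini-Hochberg adjusted p of 0.05, and 147 had an unadjusted p under 0.05. DESeq2 also called 0 genes, with 18 at an unadjusted p under 0.05. On simulated counts, the edgeR fit recovered 26 of 954 genes changed 2-fold (2.73%) and 804 of 972 changed 4-fold (82.7%). The 0 calls therefore say little about 2-fold changes. Counted without a test, 764 genes (11.6%) had both libraries labelled KO above both WT libraries and 1092 (16.6%) had them below. Leaving out any 1 library yielded between 3 and 27 calls, with the lone library of its group then assumed to vary like the others.

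The 8 genes with the smallest unadjusted p among those higher in libraries labelled KO included 3 members of the immediate-early list. All had an adjusted p of 0.9998 in edgeR, so none passed. Egr1, a transcription factor induced by receptor signals, was at 426 and 438 CPM in KO1 and KO2, against 249 and 114 CPM in WT1 and WT2 (log2 fold change 1.38, SE 0.38). Egr3, its relative, was at 450 and 271 CPM, against 194 and 159 CPM (log2 1.11, SE 0.34). Ppp1r15a, a stress-induced phosphatase subunit, was at 196 and 120 CPM, against 83.1 and 68.3 CPM. The other 5 were Rab30, a small GTPase, Plaur, the urokinase receptor, Elmsan1, a chromatin complex subunit, Lamb3, a laminin chain, and Ccl4, a chemokine, with log2 fold changes of 1.70, 1.36, 1.90, 1.21 and 1.42. Elmsan1 was at 221 and 76.6 CPM in KO1 and KO2, against 22.2 and 51.7 CPM in WT1 and WT2, the first WT value resting on 4 UMIs.

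On the lower side, the 8 genes likewise had an adjusted p of 0.9998 in edgeR. Cpm, a membrane carboxypeptidase gene, was at 32.9 and 27.4 CPM in KO1 and KO2, against 99.7 and 90.01 CPM in WT1 and WT2 (log2 fold change -1.54, SE 0.33). Tcf3, which encodes the E2A factors of B cell development, was at 43.6 and 63.0 CPM, against 77.6 and 126 CPM (log2 -1.04, SE 0.34). Pim2, a survival kinase, was at 7.11 and 10.9 CPM, against 16.6 and 33.1 CPM (log2 -1.71), and Tmem173, which encodes the DNA sensor adaptor STING, was at 8.003 and 5.47 CPM, against 27.7 and 23.8 CPM (log2 -1.70). Tifa, an adaptor of NF-kappaB signalling, Ptn, a growth factor, and Pde2a, a phosphodiesterase, had log2 fold changes of -1.80, -1.77 and -1.19. Lyz2 was at 32.0 and 5.47 CPM, against 33.2 and 167 CPM, and 131 of its 161 UMIs in WT2 came from 1 cell.

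**Figure D5:**
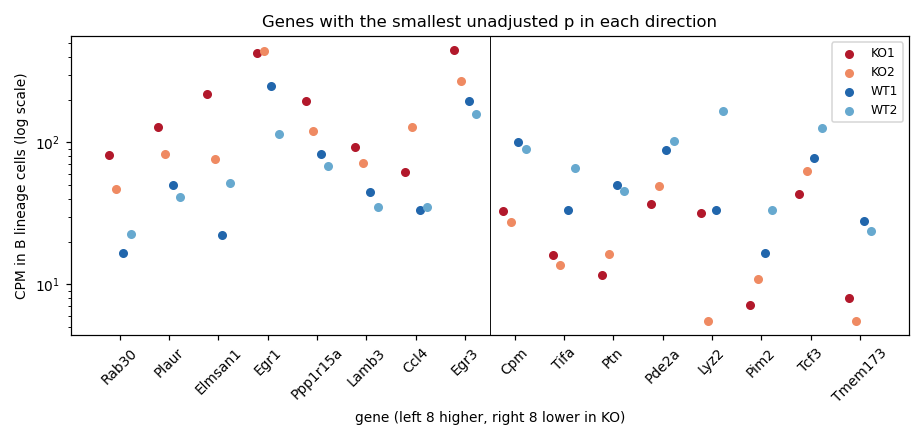
CPM on a log axis in the B lineage cells of KO1, KO2, WT1 and WT2 for the 8 genes with the smallest unadjusted p in each direction; genes higher in libraries labelled KO are left of the line, genes lower in them right of it. Egr1 lies at 426 and 438 CPM in KO1 and KO2 and at 249 and 114 CPM in WT1 and WT2, and no gene passed adjustment.

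MHC class II genes leaned to the libraries labelled KO, although none passed the test. H2-Aa, the alpha chain of the class II molecule I-A, was at 4702 and 4278 CPM in KO1 and KO2, against 3667 and 3236 CPM in WT1 and WT2. Its partner H2-Ab1 was at 3902 and 3649 CPM, against 2914 and 3082 CPM. H2-DMb1, a subunit of the peptide exchanger, was at 115 and 93.1 CPM, against 66.5 and 55.9 CPM, but it is a close copy of H2-DMb2 and reads may be divided between them. Of 15 tested genes of the list, 9 had both libraries labelled KO above both WT libraries, where 11.6% of all tested genes did, and 0 had them below. The list's median log2 fold change was 0.28, against -0.0024 over all tested genes, and it lay between 0.21 and 0.39 when each library was left out. That median was 0.24 without the antibody-secreting and cycling cells. Cd74, the invariant chain, was at 10937 and 9567 CPM, against 8880 and 10053 CPM, so its groups overlapped, and Ifi30, a lysosomal reductase, was at 510 and 167 CPM, against 321 and 816 CPM. T gate cells carried H2-Aa in 13.6% and 1.41% of cells of KO1 and KO2, against 27.4% and 11.6% of WT1 and WT2.

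Interferon-responsive genes leaned the other way, again with none past the test. Of 15 tested genes, 7 had both libraries labelled KO below both WT libraries, where 16.6% of all tested genes did, and the median log2 fold change was -0.37, between -0.64 and -0.26 with each library left out. Irf9, which carries the interferon signal with STAT2, was at 18.7 and 38.3 CPM in KO1 and KO2, against 49.9 and 47.6 CPM in WT1 and WT2. Samhd1, a dNTPase that restricts viruses, was at 155 and 241 CPM, against 283 and 279 CPM. Of 17 MHC class I genes, 5 had both libraries labelled KO below both WT libraries and 0 above, where 16.6% and 11.6% of all tested genes did. The presenting molecules themselves overlapped, with H2-K1 at 1029 and 1705 CPM, against 1385 and 1551 CPM, and a list median of -0.07, which was -0.35 without KO2 and -0.11 without WT1.

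Immediate-early genes, which are induced within minutes by receptor signals and by tissue handling, went more with the library than with the genotype label. Summed at 1500 UMIs per cell, they exceeded the pooled median in 61.4% and 41.8% of the cells of KO1 and KO2, against 64.9% and 32.3% of WT1 and WT2 (exact permutation p = 1). Fos was at 260 and 63.0 CPM in KO1 and KO2, against 460 and 76.6 CPM in WT1 and WT2, so KO1 and WT1 were the high libraries. Junb, at 1169 and 512 CPM against 809 and 431 CPM, had the same pattern. Of 22 tested genes, 4 had both libraries labelled KO above both WT libraries, Egr1, Egr3, Myc and Ppp1r15a, and 2 had them below, Nr4a2 and Klf4, where 11.6% and 16.6% of all tested genes did. The median log2 fold change was 0.21, and lay between 0.00078 and 0.46 with each library left out, at the low end without KO1. T gate cells at the same depth had Fos in 19.6% and 25.4% of cells of KO1 and KO2, against 30.1% and 10.6% of WT1 and WT2. Of 13 heat shock genes, 3 were above without overlap and 0 below, against the same 11.6% and 16.6% of all tested genes. Their median log2 of 0.29 was 0.10 without KO1, 0.17 without WT1 and 0.53 without WT2. Whether the B and T cell values share a source was not tested.

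B cell receptor signalling genes were near even between the groups. Of 22 tested, 3 were above without overlap, Btk, Rac2 and Nfatc1, and 0 below, where 11.6% and 16.6% of all tested genes were. The count above is close to that of all genes. The median log2 of 0.11 was -0.04 without KO1, 0.23 without KO2, 0.20 without WT1 and 0.04 without WT2. Btk, the kinase whose loss blocks B cell development, was at 84.5 and 65.7 CPM in KO1 and KO2, against 55.4 and 50.7 CPM in WT1 and WT2. Syk, the kinase that CD79 recruits, was at 440 and 304 CPM, against 399 and 355 CPM. Of 25 B cell transcription factors, 0 were above and 3 below without overlap, Ikzf3, Pou2af1 and Tcf3, a share below under the 16.6% of all genes. Their median log2 of -0.16 was -0.38 without KO1, 0.0009 without KO2, -0.05 without WT1 and -0.0095 without WT2. Of 16 survival and costimulation genes, 1 was above, Traf1, and 3 were below, Cd40, Pim1 and Pim2, where 11.6% and 16.6% of all tested genes were. Their median log2 of -0.09 lay between -0.17 without KO1 and 0.12 without WT2. Cd40, the receptor for T cell help, was at 14.2 and 38.3 CPM, against 44.3 and 56.9 CPM.

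Notch pathway genes, to which the study's title points, were split in these cells. Of 22 tested, 3 had both libraries labelled KO above both WT libraries, Rbpj, Mfng and Adam10, and 4 had them below, among them Notch1, Dtx2 and Spen. These counts are close to the 11.6% above and 16.6% below of all tested genes. The median log2 fold change was -0.02, and 0.22 without KO1, -0.03 without KO2, -0.11 without WT1 and 0.17 without WT2, and 0 genes passed. Notch2, the receptor that directs marginal zone B cells, was at 46.2 and 30.1 CPM in KO1 and KO2, against 66.5 and 29.0 CPM in WT1 and WT2. Its target Dtx1 was at 51.6 and 95.8 CPM, against 27.7 and 103 CPM, and the target Hes1 at 39.1 and 71.2 CPM, against 11.1 and 64.1 CPM. Both targets were higher in KO2 and WT2 than in KO1 and WT1. Notch1 was at 16.0 and 16.4 CPM in KO1 and KO2, against 27.7 and 41.4 CPM in WT1 and WT2 (log2 fold change -1.15), and rested on 5 UMIs in WT1.

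Among cytokine genes, Ltb, the lymphotoxin subunit that maintains lymphoid tissue, was at 147 and 320 CPM in KO1 and KO2, against 227 and 488 CPM in WT1 and WT2. Tgfb1 was at 285 and 268 CPM, against 194 and 299 CPM. Il10, a cytokine of regulatory B cells, was at 1.78 and 0 CPM, against 16.6 and 0 CPM, and Il6 was at 5.34 and 16.4 CPM, against 0 and 7.24 CPM. At these depths 16.6 CPM in WT1 stands for 3 UMIs, so no difference was detectable. Gpr183, a positioning receptor for oxysterols, was at 329 and 115 CPM, against 222 and 95.2 CPM, high in KO1 and WT1. S1pr1, the receptor for exit from lymphoid tissue, was at 220 and 375 CPM, against 238 and 378 CPM, high in KO2 and WT2.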

How the data were processed

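Raw UMI counts per gene and barcode were used as the authors deposited them. Per the file headers, Cell Ranger 6.1.2 made the KO3 matrix and version 6.0.2 the other 4; mm10 is the build per the submitters' processing notes. The annotation release and the cell-calling rule: not given in the sources used here. The matrices hold 32285 genes in 5 libraries, 1 per sample; labels do not say that each is a separate mouse, so p-values measure the spread between libraries.

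Members were found by the rule given in the report. Doublets were not removed; removing the cells that scored highest against simulated doublets is an alternative. Counts were summed per library with at least 20 members and fitted with edgeR 4.0.16 (filterByExpr, TMM, robust quasi-likelihood, Benjamini-Hochberg, threshold 0.05) in R 4.3.3, with DESeq2 1.42.0 as an alternative. An SE is the absolute log2 fold change over the square root of the F statistic. CPM carries no TMM factor. The fit was tested on simulated data, with the recovery given in the report and 8 false calls at 2-fold and 65 at 4-fold. Two-sided exact permutation tests (scipy 1.17.1) served for cell shares; intervals are exact binomial ones. Thinning used a fixed seed. Intervals and floors (3 counts) cover counting error only. Positions are from GENCODE M21 (GRCm38), matched by gene ID, which may not be the authors' annotation.

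The named genes are the B cell markers, the most abundant and most enriched genes, up to 8 members of each list with the highest mean CPM, and the 8 genes per direction with the smallest unadjusted p (minimum 20 CPM in the higher group). Unnamed gene models were left out of the last set. Other list members, among them those named for ranges that do not overlap or for low levels, were chosen after their values were seen. The members, the 23 pathway lists and the 14 marker lists were chosen with earlier results of these data known. Alternatives covered the gate, cell filters, normalization, count filter, tool, replicate block and leaving out each library. Some genes of the lists are not reported here.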

Additional observations from a re-analysis of the deposited data

How the results depend on the processing

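Of 405 alternative values, 374 kept their direction and their side of the threshold. The 16 genes named for their smallest p supply 287 of the 405 values, and none of these genes changed direction. They were picked from these same data, and all had library ranges that did not overlap, so this was partly set in advance. The permutation tests of cell shares cannot reach 0.05 in the main setting, so only direction could change for them there. Of these 16, Rab30, Plaur, Elmsan1, Egr1, Tifa and Lyz2 passed under 13 single settings, all of them without the count filter or without 1 library. Other list members were also called in such fits, among them immunoglobulin constant genes without WT1 or without WT2. The single antibody-secreting cells of KO1, KO2 and WT1 held many UMIs of such genes, and WT2 had no such cell in the gate. Their part in these calls was not tested. The count of genes called was 0 in the fit reported, 9 of 14508 without a count filter (2 higher, 7 lower), and 3 without KO1, 22 without KO2, 27 without WT1 and 18 without WT2; fewer samples and other tested genes enter these, and the cause was not tested. The difference in the share of kept cells ran from -2.11 to 0.64 percentage points when each library was left out, and was 0.64 without WT2. The share against T gate cells ran from -11.4 to 19.2. The lambda-led share ran from -9.34 to -4.15, the Ighd share from 6.23 to 16.3, and the share with plasma cell genes from -3.99 to 0.11. The switched share ran from -1.60 to 1.04; it was 0.84 under a gate of 10 per 10000 UMIs and 0 without the antibody-secreting and cycling cells. The immediate-early share ran from -13.3 to 19.3, and was -0.75 under a gate of 2 UMIs, -2.39 without the Epcam and collagen limits, and -2.03 without the secreting and cycling cells. Leaving out those limits, those cells or Gm42418 was chosen after seeing the data. The deviations of KO1 and WT1 correlated at 0.129 over genes, and with 2 pairs the shared numbers do not establish a pairing; with the replicate number as a block, 0 genes were called and 213 had an unadjusted p under 0.05. Depth limits WT1 most, where 1 UMI in the summed cells is worth more than 5 CPM.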
